A study of Mus musculus with 9 samples.

Results

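Transcript levels of 37 mouse genes of mitosis and cytokinesis were compared between bone marrow stem cell populations sorted on the surface proteoglycan Syndecan-2. The 37 genes were chosen by symbol from a list of known mitotic genes, with earlier results of these data known. The table held 20635 gene symbols, and all 37 were among the 13997 genes with enough signal to be tested. RNA was sequenced from femur and tibia marrow of C57BL/6J mice aged 10 weeks, and every population came from the gate KSL CD34- (c-Kit positive, Sca-1 positive, lineage negative and CD34 negative), which holds the long-term blood-forming stem cells. The populations were the Syndecan-2+ cells of this gate, its Syndecan-2- cells, and Parent, the gate not divided by Syndecan-2, with 3 libraries each from 10000 sorted cells. The labels give male mice in one place and mixed sexes in another, and they do not say whether libraries came from separate animals, so p-values measure the spread between these libraries, which may be technical.

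Entry into mitosis is driven by the kinase Cdk1 bound to A- and B-type cyclins, and exit by the anaphase-promoting complex, a ubiquitin ligase that marks cyclins and securin for destruction. In between, motor proteins and microtubule-binding proteins build the spindle, kinetochores attach chromosomes to it under the watch of the spindle checkpoint, and the central spindle places the contractile ring that cuts the cell apart. Most adult blood-forming stem cells rest outside the cell cycle, so that in RNA from a whole population the level of such genes depends on how many cells are dividing. In these bulk libraries fewer dividing cells and less RNA per dividing cell cannot be told apart.

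Many mitotic genes are transcribed from promoters with a cell cycle genes homology region (CHR), commonly TTTGAA, bound by the DREAM and MuvB complexes, and with CCAAT boxes bound by NF-Y. The promoters below belong to some of the genes whose levels are described in full further on, and to partner genes within cytokinesis. Each one shown carries both motifs, which 21 of 32 promoters looked at did. Those of Ccnb1, with CCAAT but no TTTGAA, and of Birc5, with neither, are not shown. They run from 120 bases before to 30 bases after the start of transcription, are given on the strand of the gene from RefSeq (GRCm38.p6), and carry TTTGAA and CCAAT, or the reverse complement of either, in capitals.
Prc1, chr7:80294331-80294480, plus strand: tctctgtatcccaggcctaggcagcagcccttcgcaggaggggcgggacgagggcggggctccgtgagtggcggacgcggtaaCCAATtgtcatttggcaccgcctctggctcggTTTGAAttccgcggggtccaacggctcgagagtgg
Hmmr, chr11:40733408-40733557, minus strand: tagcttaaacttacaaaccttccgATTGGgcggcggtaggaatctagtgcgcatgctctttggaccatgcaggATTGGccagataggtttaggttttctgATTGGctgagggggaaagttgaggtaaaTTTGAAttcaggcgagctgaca
Ccnb2, chr9:70421525-70421674, minus strand: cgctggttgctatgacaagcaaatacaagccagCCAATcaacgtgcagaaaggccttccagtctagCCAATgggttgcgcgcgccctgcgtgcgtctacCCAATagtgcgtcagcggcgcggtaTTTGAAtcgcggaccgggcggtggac
Cdk1, chr10:69352883-69353032, minus strand: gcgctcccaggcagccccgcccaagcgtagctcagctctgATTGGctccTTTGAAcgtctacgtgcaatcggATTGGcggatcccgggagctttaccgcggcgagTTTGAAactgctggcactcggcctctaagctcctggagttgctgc
Racgap1, chr15:99651627-99651776, minus strand: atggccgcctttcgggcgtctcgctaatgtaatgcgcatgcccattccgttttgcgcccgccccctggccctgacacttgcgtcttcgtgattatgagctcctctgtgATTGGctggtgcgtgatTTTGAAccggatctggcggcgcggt
Kif23, chr9:61946770-61946919, minus strand: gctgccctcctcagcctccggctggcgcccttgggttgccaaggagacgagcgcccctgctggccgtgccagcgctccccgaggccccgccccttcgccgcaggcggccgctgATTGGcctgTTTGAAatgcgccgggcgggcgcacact
Ect2, chr3:27153849-27153998, minus strand: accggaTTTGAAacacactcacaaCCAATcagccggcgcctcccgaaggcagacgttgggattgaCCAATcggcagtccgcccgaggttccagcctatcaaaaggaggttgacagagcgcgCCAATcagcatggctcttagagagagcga

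Promoters of 32 of the 37 genes were found in the RefSeq set, as stretches from 250 bases before to 50 after the start, and those of Aurkb, Ccna2, Cdc25c, Kif20a and Tpx2 were not looked at. TTTGAA occurred on either strand in 24 of the 32 (75%), against 18.1% of the 27025 genes of that set with 1 promoter each. For the 32 genes the promoter nearest the annotated start of the gene was taken, and for the whole set the first one listed. CCAAT occurred on either strand in 24 of 32 (75%), against 37.9% of all, and both motifs together in 21 of 32 (65.6%), against 7.12% of all. Within 50 bases of the start, 22 of 32 held TTTGAA (68.8%), against 4.92% of all. Matches of TTTGAA and CCAAT can overlap by 1 base at most. By the calls given below, TTTGAA was present in 13 of 18 promoters of genes higher in Syndecan-2+ cells, in both of those lower and in 9 of 12 of genes not called. Kif23 carried TTTGAA from position 3 of the transcript with a reversed CCAAT box at -7, and its partner Racgap1 carried TTTGAA from position 6 with a reversed CCAAT box at -12, while their levels differed in opposite directions between the sorted populations.

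**Figure D1:**
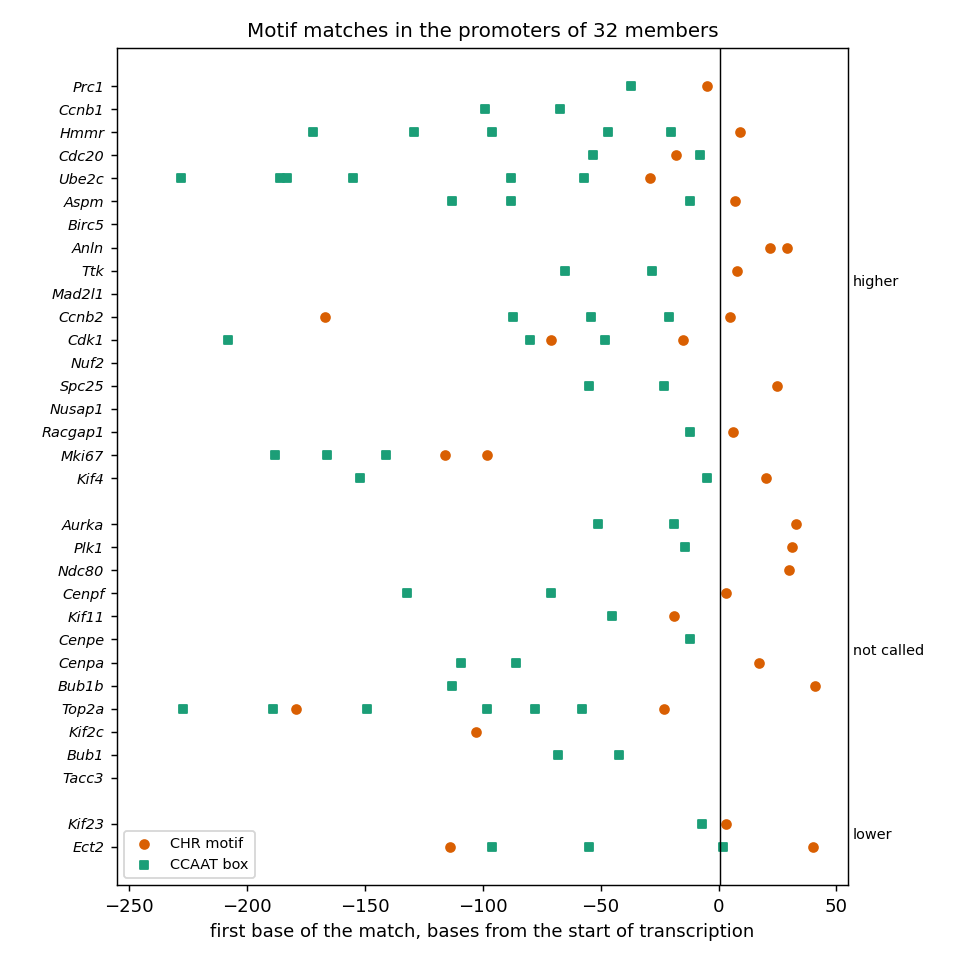
Positions of TTTGAA (CHR motif, circles) and CCAAT (squares) on either strand in the promoters of 32 mitosis and cytokinesis genes, by bases from the start of transcription, with genes grouped by their call between Syndecan-2+ and Syndecan-2- cells. In 22 of 32 promoters a CHR motif lies within 50 bases of the start, and both genes called lower, Kif23 and Ect2, carry each motif.

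Levels are in CPM, the unit in which the authors deposited them (reads per transcript set against a fixed library total), added up over the transcripts of a gene. Judged by the commonest low value, a level of 1 CPM stood for 15.5 to 20.6 reads, and a floor of 3 reads for 0.146 to 0.194 CPM, below which no difference was detectable. Counting error is all that this floor covers. The sort was seen in Sdc2 itself, at 4.58 ± 0.571 CPM in Syndecan-2+, 0.332 ± 0.137 CPM in Syndecan-2- and 1.75 ± 0.290 CPM in Parent libraries (SD, n = 3 libraries throughout). Libraries within a population were not level for the mitotic genes. Syndecan-2+ library 1 was the highest of its population for 28 of the 37 genes. Syndecan-2+ library 3 lay above its population's mean for only 3 of them, and Syndecan-2- library 3 for only 8. Per kilobase of transcript, which allows a rough comparison of genes, the highest levels in Syndecan-2+ cells were those of Top2a (62.1 CPM per kb) and Mki67 (50.6 CPM per kb), followed by Prc1 (30.3 CPM per kb) and Cdk1 (26.1 CPM per kb), and the lowest was that of Cdc25c (2.00 CPM per kb). These sums take in every listed transcript, and short non-coding ones weigh heavily in them. An example is a retained intron of Cdk1 of 475 bases, at a mean of 5.35 CPM in Syndecan-2+ libraries.

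Between Syndecan-2+ and Syndecan-2- cells, 21 of the 37 genes were higher in Syndecan-2+, 2 were lower (Kif23 and Ect2) and 14 were not called. The test was limma on log2(CPM + 1), with all 9 libraries in 1 fit and a Benjamini-Hochberg adjusted p under 0.05 over all 13997 genes. Of all genes tested, 20.5% were called higher and 9.51% lower, so the share of the 37 called higher (56.8%) stood above that background and the share called lower (5.41%) below it. The changes were small, with a median log2 fold change of 0.32 over the 37 genes against 0.10 over all genes tested. Values of the populations did not overlap for 24 genes higher and 2 lower in Syndecan-2+ cells, where the background is 29.5% and 13%. All genes together lean towards Syndecan-2+ in the deposited scaling. TMM rescaling, which sets libraries level on the bulk of their genes, moves the median of all genes to -0.0048, and after it 10 of the 37 genes were called higher (27.0%, background 14.2%) and the same 2 lower (background 14.2%). The calls that hold on that scale are Ccnb1, Ccnb2, Cdk1, Cdc20, Ube2c, Hmmr, Aspm, Ttk, Birc5 and Prc1. Leaving out Syndecan-2+ library 1 or Syndecan-2- library 3 left 12 genes called higher in each case and the same 2 lower. Without Syndecan-2+ library 3, 23 were called higher and 2 lower.

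**Figure D2:**
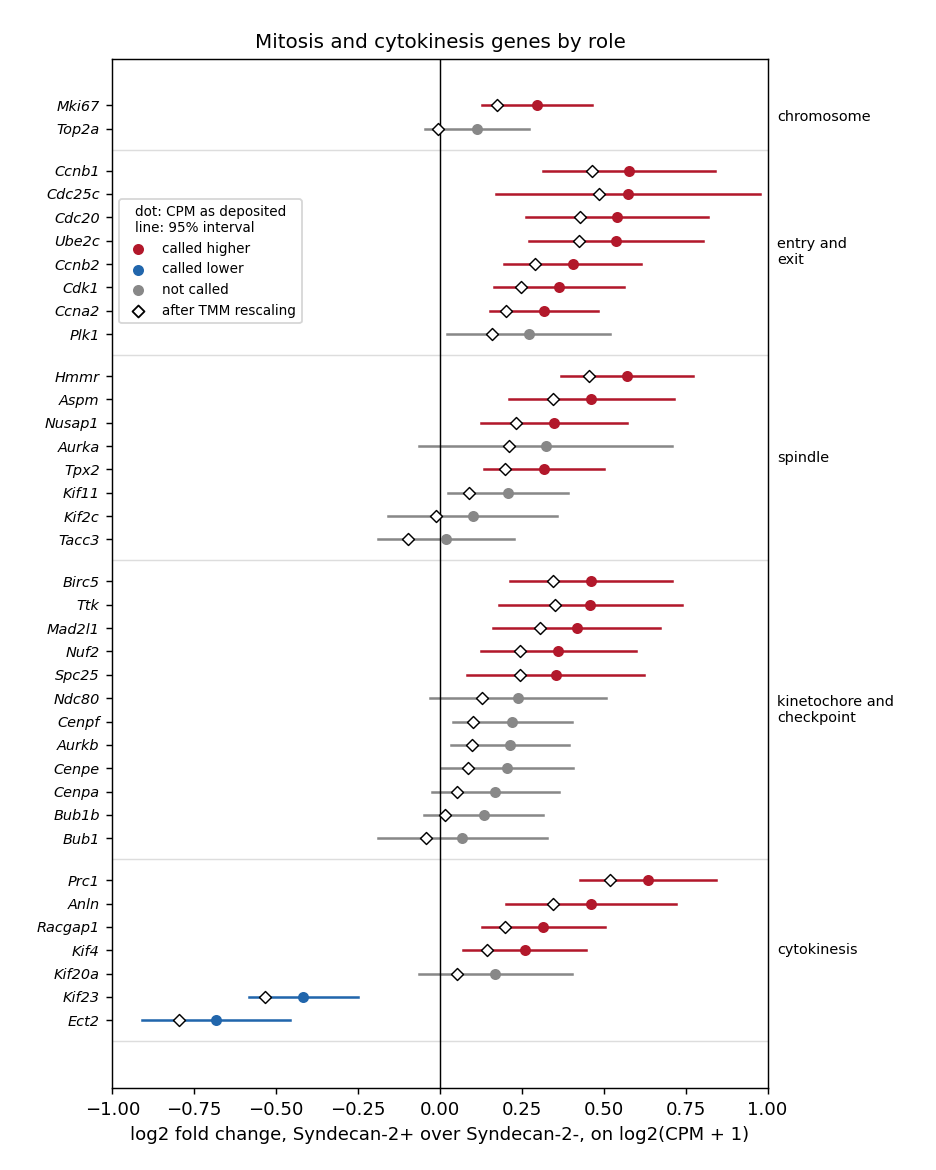
Log2 fold change of each of the 37 genes, Syndecan-2+ over Syndecan-2-, with its 95% interval from the limma fit (dots and lines, CPM as deposited) and after TMM rescaling (open diamonds), by role. Of the 37 genes, 35 lie right of 0 before rescaling (64.9% of all genes tested do) and 31 after it (49.2% of all), and Kif23 and Ect2 lie left of 0 on both scales.

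Markers of other cell types differed between the same libraries. Summed over 10 plasma cell markers, the range was 635 to 888 CPM in Syndecan-2+, 41.0 to 52.6 CPM in Syndecan-2- and 178 to 212 CPM in Parent libraries, with 6 of 8 tested genes higher and 1 lower in Syndecan-2+, and with Igha at 0 in every Syndecan-2- library. For 10 erythroid markers the range was 284 to 301 CPM in Syndecan-2+, 113 to 139 CPM in Syndecan-2- and 169 to 192 CPM in Parent libraries, with 5 of 6 tested genes higher and 1 lower. Mature myeloid markers went the other way, at 350 to 662 CPM in Syndecan-2+, 838 to 1030 CPM in Syndecan-2- and 710 to 900 CPM in Parent libraries (1 of 8 tested higher and 6 lower), as did B and T cell markers, at 15.9 to 17.0 CPM in Syndecan-2+, 35.7 to 37 CPM in Syndecan-2- and 24.7 to 29.8 CPM in Parent libraries (4 of 6 tested lower). Antigens used to deplete lineage cells summed to 3.99 to 5.87 CPM in Syndecan-2+, 17.8 to 22.4 CPM in Syndecan-2- and 11.9 to 17.7 CPM in Parent libraries. The part of these cell types in the mitotic gene levels was not tested.

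Of 8 genes of mitotic entry and exit, 7 were higher in Syndecan-2+ cells (87.5%, background 20.5%) and none was lower. After TMM rescaling 5 kept the call (62.5%, background 14.2%), with a median log2 fold change of 0.47 before and 0.36 after it. Ccnb1 (ENSMUSG00000041431, chromosome 13, 100778650 to 100786570, minus strand, GRCm38 as all positions here) encodes cyclin B1, the activating partner of Cdk1. It stood at 17.0, 15.9 and 14.5 CPM in the Syndecan-2+ libraries, against 9.65, 9.74 and 11.5 CPM in the Syndecan-2- libraries. Every Syndecan-2+ library lay above every Syndecan-2- library, at a log2 fold change of 0.58 (SE 0.12, limma adjusted p = 0.00175).

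Cdk1 (ENSMUSG00000019942, chromosome 10, 69336635 to 69352938), the kinase itself, had 24.98, 24.2 and 23.4 CPM in Syndecan-2+ and 20.2, 19.3 and 16.5 CPM in Syndecan-2- libraries. The groups did not overlap, and the log2 fold change was 0.36 (SE 0.09, limma adjusted p = 0.00669). Ccnb2, a second B-type cyclin gene (26.7, 25.8 and 22.8 CPM in Syndecan-2+, against 18.9, 19.1 and 18.1 CPM in Syndecan-2-), rose by 0.41 (log2, limma adjusted p = 0.00443). A processed copy, Ccnb2-ps, is annotated in the mouse genome, so reads of Ccnb2 may be split with it. Ccna2, which encodes the cyclin of S phase and early mitosis, averaged 49.6 ± 2.36 CPM in Syndecan-2+ and 39.6 ± 2.33 CPM in Syndecan-2- cells (log2 0.32, limma adjusted p = 0.00469), a call lost after TMM rescaling (log2 0.20, adjusted p = 0.0653).

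Both genes that serve the anaphase-promoting complex were higher. Cdc20, its mitotic activator, had 21.5, 25.9 and 17.8 CPM in Syndecan-2+ and 16.2, 12.9 and 14.3 CPM in Syndecan-2- libraries, without overlap (log2 0.54, SE 0.13, limma adjusted p = 0.00429). Ube2c, the ubiquitin-conjugating enzyme that works with the complex, had 18.7, 16.0 and 14.1 CPM in Syndecan-2+ and 10.9, 11.7 and 9.94 CPM in Syndecan-2- libraries, also without overlap (log2 0.54, SE 0.13, limma adjusted p = 0.00330). These 2 calls, and those of Ccnb1, Ccnb2 and Cdk1, held under all 20 alternative settings for single genes. Cdc25c, the phosphatase that switches Cdk1 on, had the lowest level of the 37, at 3.88 ± 0.774 CPM in Syndecan-2+ and 2.26 ± 0.224 CPM in Syndecan-2- cells, and its call (log2 0.57, limma adjusted p = 0.0306) was lost in 9 of 19 settings. Plk1, the polo-like kinase of mitotic entry, was not called at 13.8 ± 1.94 CPM in Syndecan-2+ and 11.2 ± 0.684 CPM in Syndecan-2- cells (log2 0.27, 95% interval 0.023 to 0.52, limma adjusted p = 0.0950).

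Spindle genes were split. Of 8, 4 were higher in Syndecan-2+ cells (Hmmr, Aspm, Nusap1 and Tpx2), or 50% against a background of 20.5%, and none was lower. After TMM rescaling 2 kept the call (Hmmr and Aspm), or 25% against a background of 14.2%. Hmmr (ENSMUSG00000020330, chromosome 11, 40701395 to 40733422, minus strand), the hyaluronan-mediated motility receptor, is also a spindle pole protein that binds microtubules. It had 31.1, 30 and 27.7 CPM in Syndecan-2+ libraries, against 18.9, 18.7 and 21.3 CPM in Syndecan-2- libraries. The gap between the groups was wider than the spread within either, with a log2 fold change of 0.57 (SE 0.10, limma adjusted p = 0.000171).

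Aspm, which focuses spindle poles, had 63.4, 51.9 and 44.0 CPM in Syndecan-2+ and 38.1, 43.3 and 32.8 CPM in Syndecan-2- libraries (log2 0.46, limma adjusted p = 0.00645). The lowest Syndecan-2+ library lay only just above the highest Syndecan-2- library. Nusap1, a microtubule bundler near chromosomes, averaged 27.3 ± 2.62 CPM in Syndecan-2+ and 21.3 ± 2.52 CPM in Syndecan-2- cells (log2 0.35, limma adjusted p = 0.0177). Tpx2, which activates Aurora A on the spindle, averaged 61.7 ± 4.21 CPM in Syndecan-2+ and 49.5 ± 6.09 CPM in Syndecan-2- cells (log2 0.32, limma adjusted p = 0.00954). Both of these calls were lost after TMM rescaling (adjusted p = 0.0930 for Nusap1 and 0.130 for Tpx2).

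Among the spindle genes not called, Aurka, the Aurora A kinase itself, varied widely, with 14.2, 14.95 and 9.22 CPM in Syndecan-2+ and 10.6, 11.03 and 8.05 CPM in Syndecan-2- libraries (log2 0.32, 95% interval -0.064 to 0.71, limma adjusted p = 0.207). Its values overlapped between the groups, yet each Syndecan-2+ library exceeded the Syndecan-2- library of the same replicate number, and with the replicate number as a block it was called higher (limma adjusted p = 0.0264). Kif11, the plus-end motor that pushes the spindle poles apart, averaged 63.9 ± 8.58 CPM in Syndecan-2+ and 54.9 ± 3.33 CPM in Syndecan-2- cells, and was also called only with the block (limma adjusted p = 0.0816 without it and 0.0238 with it). The depolymerising kinesin gene Kif2c (13.4 ± 1.89 CPM in Syndecan-2+, against 12.3 ± 0.844 CPM in Syndecan-2-) and Tacc3, a clathrin-bound stabiliser of kinetochore fibres (26.7 ± 0.825 CPM in Syndecan-2+, against 26.4 ± 2.84 CPM in Syndecan-2-), differed by less than their standard errors. Their 95% intervals, -0.16 to 0.36 for Kif2c and -0.19 to 0.23 for Tacc3 on the log2 scale, do not show that the populations were alike.

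Of 12 kinetochore and checkpoint genes, 5 were higher in Syndecan-2+ cells (Nuf2, Spc25, Ttk, Mad2l1 and Birc5), or 41.7% against a background of 20.5%, and none was lower. After TMM rescaling 2 kept the call (Birc5, and Ttk at a limma adjusted p of 0.0499), or 16.7%, near the background of 14.2%. Birc5 (ENSMUSG00000017716, chromosome 11, 117849251 to 117855743, plus strand) encodes survivin, the subunit that brings the chromosomal passenger complex to centromeres. It had 22.7, 21.6 and 20.3 CPM in Syndecan-2+ and 16.9, 16.7 and 12.8 CPM in Syndecan-2- libraries. The groups stood clear of each other (log2 0.46, SE 0.12, limma adjusted p = 0.00606). Aurkb, the kinase of the same complex, had 26.1, 24.2 and 25.1 CPM in Syndecan-2+ and 21.97, 21.1 and 21.5 CPM in Syndecan-2- libraries, also without overlap, but was not called (log2 0.21, limma adjusted p = 0.0707, and 0.0490 with the replicate block).

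Calls fell on some checkpoint genes and not on others, and differences between genes were not tested. Ttk, the kinase that starts checkpoint signalling, averaged 10.2 ± 1.54 CPM in Syndecan-2+ and 7.12 ± 0.520 CPM in Syndecan-2- cells (log2 0.46, limma adjusted p = 0.0132). Mad2l1, which encodes the checkpoint protein that holds Cdc20, averaged 17.4 ± 1.89 CPM in Syndecan-2+ and 12.8 ± 1.49 CPM in Syndecan-2- cells (log2 0.42, limma adjusted p = 0.0138). Bub1 and Bub1b, which act between these steps, were not called. Bub1 averaged 13.1 ± 1.33 CPM in Syndecan-2+ and 12.5 ± 1.48 CPM in Syndecan-2- cells, and Bub1b 51.5 ± 4.17 CPM in Syndecan-2+ and 46.8 ± 1.95 CPM in Syndecan-2- cells. Their log2 fold changes were 0.068 (95% interval -0.19 to 0.33) and 0.13 (-0.049 to 0.32).

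The Ndc80 complex, which grips microtubule ends, has 3 of its subunits among these genes. Nuf2 averaged 26.6 ± 2.09 CPM in Syndecan-2+ and 20.5 ± 2.41 CPM in Syndecan-2- cells (log2 0.36, limma adjusted p = 0.0211). For Spc25, at 13.5 ± 1.63 CPM in Syndecan-2+ and 10.3 ± 0.532 CPM in Syndecan-2- cells (log2 0.35, limma adjusted p = 0.0456), the call was lost in 12 of 20 settings. Transcripts of Spc25 not annotated as protein coding summed to 4.22 ± 0.260 CPM in Syndecan-2+ and 1.28 ± 0.538 CPM in Syndecan-2- cells, and its coding transcripts to 9.27 ± 1.41 CPM in Syndecan-2+ and 9.02 ± 1.01 CPM in Syndecan-2- cells. Ndc80 itself had values that did not overlap (13.1 ± 1.29 CPM in Syndecan-2+, against 10.9 ± 0.324 CPM in Syndecan-2-) but was not called (log2 0.24, limma adjusted p = 0.176). Centromere genes were not called either. Cenpa, the centromeric histone H3 variant, Cenpe, a kinetochore motor, and Cenpf, a kinetochore and nuclear matrix protein, had log2 fold changes of 0.17, 0.20 and 0.22, with limma adjusted p of 0.187, 0.123 and 0.0627, and Cenpf was called with the replicate block (adjusted p = 0.0175).

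Cytokinesis genes had calls in both directions. Of 7, 4 were higher in Syndecan-2+ cells (Prc1, Anln, Racgap1 and Kif4), 2 were lower (Kif23 and Ect2) and 1 was not called (Kif20a). These are 57.1% higher and 28.6% lower, against backgrounds of 20.5% and 9.51%. After TMM rescaling 1 was higher (14.3%) and 2 lower (28.6%), with a background of 14.2% in either direction. Prc1 (ENSMUSG00000038943, chromosome 7, 80294450 to 80316259, plus strand) encodes the protein that crosslinks antiparallel microtubules of the central spindle, and had the highest log2 fold change of the 37 on the log2(CPM + 1) scale, while Cdc25c, at a much lower level, had the higher ratio of mean CPM (1.72, against 1.56 for Prc1). It stood at 49.5, 48.8 and 45.1 CPM in Syndecan-2+ libraries, against 32.8, 33.1 and 25.8 CPM in Syndecan-2- libraries and 41.6, 37.5 and 34.5 CPM in Parent libraries. No Syndecan-2+ library reached down to the other populations, and the log2 fold change over Syndecan-2- was 0.64 (SE 0.10, limma adjusted p = 8.11e-05).

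Kif23 (ENSMUSG00000032254, chromosome 9, 61917280 to 61946799, minus strand) encodes the kinesin subunit of centralspindlin, the complex that binds the central spindle and stays in the midbody. It had 34.1, 32.6 and 31.7 CPM in Syndecan-2+ libraries, against 42.7, 44.1 and 45.4 CPM in Syndecan-2- libraries and 45.3, 39.4 and 46.2 CPM in Parent libraries. Every Syndecan-2+ library lay below all others, at a log2 fold change of -0.42 against Syndecan-2- (SE 0.08, limma adjusted p = 0.000600). Ect2 (ENSMUSG00000027699, chromosome 3, 27097222 to 27153878, minus strand) encodes the exchange factor that centralspindlin recruits to switch on the GTPase RhoA at the future furrow. It had 11.8, 10.6 and 10.7 CPM in Syndecan-2+ libraries, against 17.6, 20.8 and 16.7 CPM in Syndecan-2- libraries and 17.0, 16.5 and 17.5 CPM in Parent libraries. Here too the Syndecan-2+ libraries lay apart from the other 6, with a log2 fold change of -0.68 against Syndecan-2- (SE 0.11, limma adjusted p = 8.71e-05). Both falls grew after TMM rescaling, to -0.53 for Kif23 and -0.80 for Ect2, and held in all 20 settings.

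Racgap1 (ENSMUSG00000023015, chromosome 15, 99620496 to 99651656, minus strand), the GTPase-activating subunit that completes centralspindlin and binds Ect2, went the other way. It had 32.8, 28.7 and 31.95 CPM in Syndecan-2+ and 27.3, 24.03 and 23.2 CPM in Syndecan-2- libraries, without overlap (log2 0.32, limma adjusted p = 0.0115), a call lost after TMM rescaling (0.20, adjusted p = 0.0715). Anln, which encodes the actin-binding ring protein anillin, averaged 25.1 ± 2.19 CPM in Syndecan-2+ and 18.1 ± 3.41 CPM in Syndecan-2- cells (log2 0.46, limma adjusted p = 0.00833). Kif4, the chromokinesin that partners Prc1 at the midzone, averaged 24.8 ± 0.963 CPM in Syndecan-2+ and 20.6 ± 0.955 CPM in Syndecan-2- cells (log2 0.26, limma adjusted p = 0.0362). These 2 calls were lost after TMM rescaling as well. Kif20a, a kinesin that carries passenger proteins to the midzone, was not called (22.2 ± 2.75 CPM in Syndecan-2+, against 19.7 ± 2.78 CPM in Syndecan-2-, log2 0.17).

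**Figure D3:**
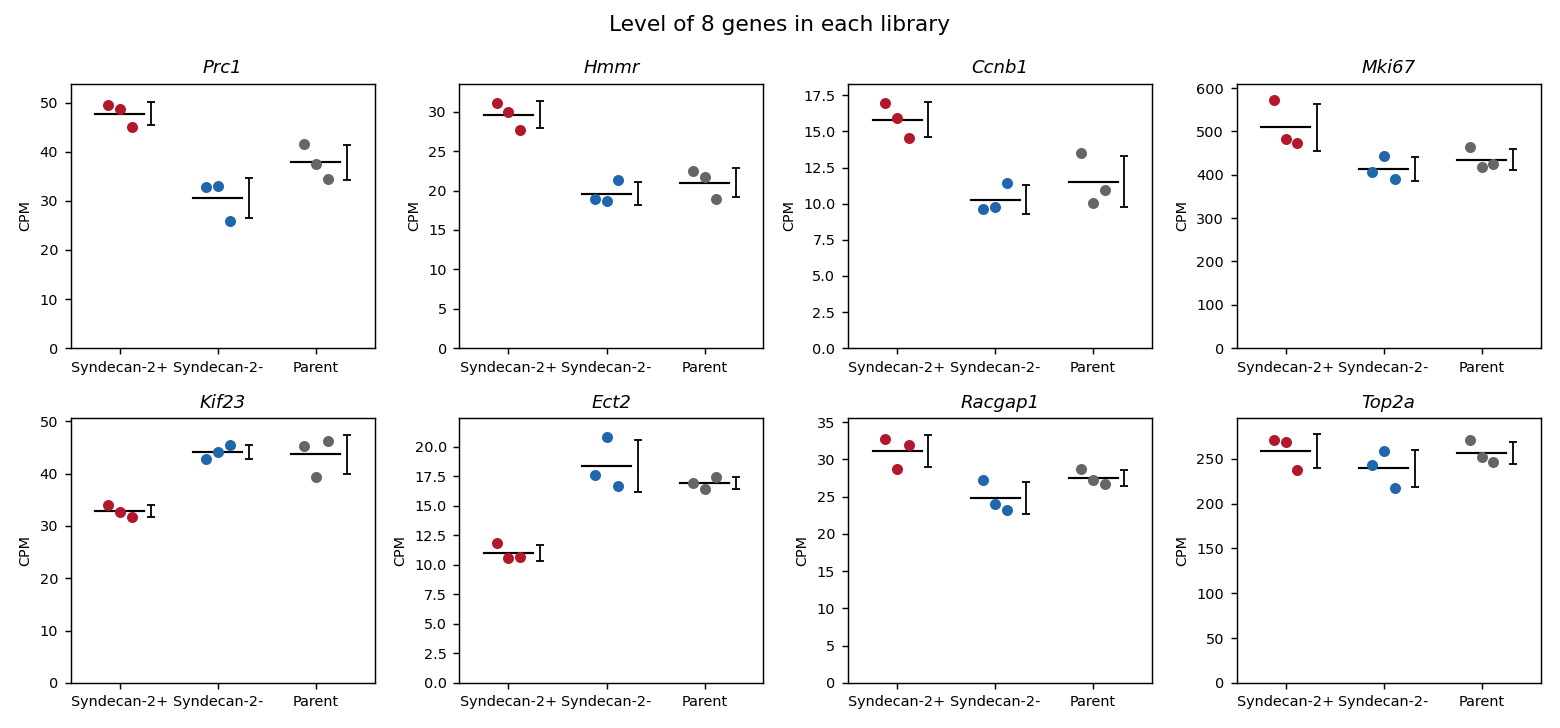
CPM of 8 genes in each library (points), with the mean (bar) and SD (whisker) of the 3 Syndecan-2+, 3 Syndecan-2- and 3 Parent libraries. Prc1 lies between 45.1 and 49.5 CPM in Syndecan-2+ libraries, above the other 6, while Kif23 (31.7 to 34.1 CPM) and Ect2 (10.6 to 11.8 CPM) lie below them.

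Ratios of genes within a library do not depend on how libraries are scaled. Kif23 over Racgap1, the subunits of centralspindlin, was 1.04, 1.13 and 0.993 in Syndecan-2+ libraries, against 1.57, 1.84 and 1.96 in Syndecan-2- and 1.58, 1.45 and 1.74 in Parent libraries. The Syndecan-2+ ratios lay below all the others. Ect2 over Racgap1 was 0.355 ± 0.0174 in Syndecan-2+, against 0.743 ± 0.112 in Syndecan-2- and 0.618 ± 0.0340 in Parent libraries, again with no overlap. Prc1 over Kif23 was 1.46 ± 0.0385 in Syndecan-2+, against 0.695 ± 0.110 in Syndecan-2- and 0.871 ± 0.110 in Parent libraries, and Kif20a over Kif23 0.676 ± 0.0592 in Syndecan-2+, against 0.445 ± 0.05001 in Syndecan-2- and 0.486 ± 0.0575 in Parent libraries. These 4 ratios are given as a description without a p-value, since their genes were picked with their calls known. Kif23 and Ect2 on the one hand and Racgap1 and Prc1 on the other already stood apart in opposite directions between the sorted populations, so ratios between them could not overlap. Among genes called higher, 2 ratios were also taken. Hmmr over Aspm was 0.567 ± 0.0709 in Syndecan-2+ and 0.526 ± 0.113 in Syndecan-2- libraries, with overlap. Ccnb1 over Cdk1 was 0.653 ± 0.0297 in Syndecan-2+ and 0.560 ± 0.119 in Syndecan-2- libraries, also with overlap, but lay above all Parent libraries (0.5252 ± 0.06245). Further ratios did not overlap between Syndecan-2+ and Syndecan-2- libraries. They were Ccnb1 over Top2a (means 0.06105 and 0.04336), Kif23 over Ect2 (2.975 and 2.422), Kif23 over Top2a (0.1269 and 0.1852) and Prc1 over Ect2 (4.335 and 1.665).

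**Figure D4:**
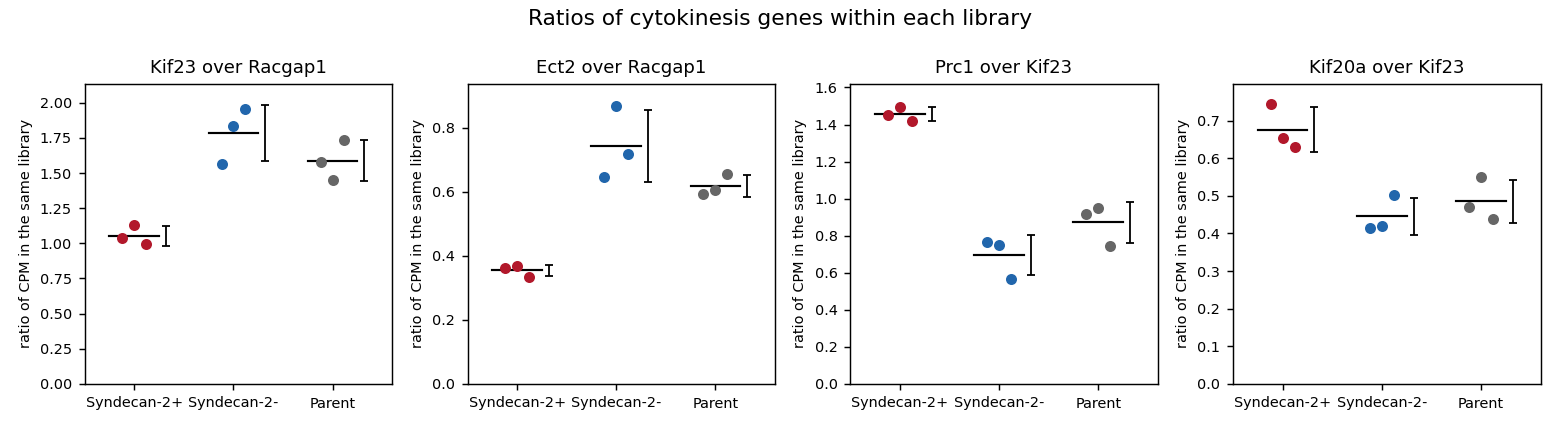
Ratios of CPM between cytokinesis genes in the same library (points), with mean (bar) and SD (whisker) for Syndecan-2+, Syndecan-2- and Parent libraries. In the ratios to Racgap1 the Syndecan-2+ libraries lie below all others, and in the ratios over Kif23 above all others.

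Transcripts gave a coarser view, as reads are divided among models of a gene. Of 97 transcripts of these genes tested among 31579, 3 were called higher in Syndecan-2+ cells, the main coding transcripts of Hmmr, Nusap1 and Ube2c, and 1 was called lower, the single listed transcript of Kif23 (limma, background 4.93% higher and 3.09% lower). For Hmmr the coding transcript (ENSMUST00000020579) had a log2 fold change of 0.58 (adjusted p = 0.00899). Ect2 was divided among 10 listed transcripts, none of which was called. Its coding transcripts together had 2.72, 4.96 and 6.08 CPM in Syndecan-2+, against 7.38, 7.71 and 11.5 CPM in Syndecan-2- and 9.21, 7.42 and 7.74 CPM in Parent libraries. Its other transcripts summed to 6.45 ± 2.34 CPM in Syndecan-2+, 9.53 ± 3.999 CPM in Syndecan-2- and 8.84 ± 1.01 CPM in Parent libraries. The coding sum of every Syndecan-2+ library thus lay below the other 6 libraries, while the remaining transcripts overlapped. Coding transcripts of Prc1 summed to 38.5 ± 1.60 CPM in Syndecan-2+, 22.8 ± 3.40 CPM in Syndecan-2- and 29.9 ± 3.68 CPM in Parent libraries. The other transcripts of Prc1 summed to 9.26 ± 1.61 CPM in Syndecan-2+, 7.79 ± 0.803 CPM in Syndecan-2- and 7.92 ± 1.04 CPM in Parent libraries.

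Exons of 11 of the 37 genes share bases with another gene, 10 of them on the opposite strand, and without a stated strand of counting the reads of such pairs cannot be told apart. Prc1 shares 911 bases with Rccd1, which stood at 7.13 ± 1.06 CPM in Syndecan-2+ and 6.58 ± 0.705 CPM in Syndecan-2- cells and was not called (limma adjusted p = 0.714). Kif20a shares 1271 bases with Cdc23 (26.7 ± 1.32 CPM in Syndecan-2+, against 24.1 ± 1.09 CPM in Syndecan-2-). Oip5, which shares 172 bases with Nusap1, and Elovl1, which shares 53 with Cdc20, were called higher themselves (log2 0.64 and 0.40, limma adjusted p = 0.0190 and 0.0178). Neither Kif23 nor Ect2 has such a partner.

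Of the broad markers of proliferation, Mki67 was called and Top2a was not. Mki67, which encodes the coat protein of mitotic chromosomes Ki-67 and is made in all cycling phases, had 572, 483 and 473 CPM in Syndecan-2+, against 406, 444 and 391 CPM in Syndecan-2- and 464, 418 and 424 CPM in Parent libraries. Syndecan-2+ library 1 stood well above the rest, and without it the call (log2 0.30, SE 0.08, limma adjusted p = 0.00875) was lost, as it was after TMM rescaling (0.18, adjusted p = 0.103). Top2a, the topoisomerase that untangles sister chromatids, had 271, 269 and 237 CPM in Syndecan-2+ and 243, 258 and 217 CPM in Syndecan-2- libraries. These values overlapped and were not called (log2 0.11, 95% interval -0.046 to 0.27, limma adjusted p = 0.289), and after TMM rescaling the estimate was -0.0070.

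Summed over all 37 genes, the level was 1939, 1763 and 1644 CPM in Syndecan-2+, against 1493, 1575 and 1404 CPM in Syndecan-2- and 1683, 1571 and 1562 CPM in Parent libraries. The Syndecan-2+ sums lay above all Syndecan-2- sums, at a ratio of means of 1.196, but overlapped with Parent. After TMM rescaling the ratio was 1.10 and the sums of both sorted populations overlapped. By role the sums differed in how far they held. Entry and exit genes stood at 181, 175 and 155 CPM in Syndecan-2+ against 128, 129 and 121 CPM in Syndecan-2- libraries, a ratio of 1.35, and this was the only role whose sums did not overlap after TMM rescaling (ratio 1.24). The ratios for spindle genes were 1.24 before and 1.14 after rescaling, for kinetochore genes 1.19 and 1.09, and for cytokinesis genes, where Kif23 and Ect2 offset the rest, 1.11 and 1.02. As a share of the sum over the 37, entry and exit genes took 9.56 ± 0.321% in Syndecan-2+, 8.46 ± 0.234% in Syndecan-2- and 8.73 ± 0.297% in Parent libraries, and cytokinesis genes 10.96 ± 0.453% in Syndecan-2+, 11.8 ± 0.220% in Syndecan-2- and 11.97 ± 0.0457% in Parent libraries. In both roles the 3 Syndecan-2+ shares lay on one side of the 3 Syndecan-2- shares. The shares of chromosome, spindle, and kinetochore and checkpoint genes overlapped between the sorted populations.

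**Figure D5:**
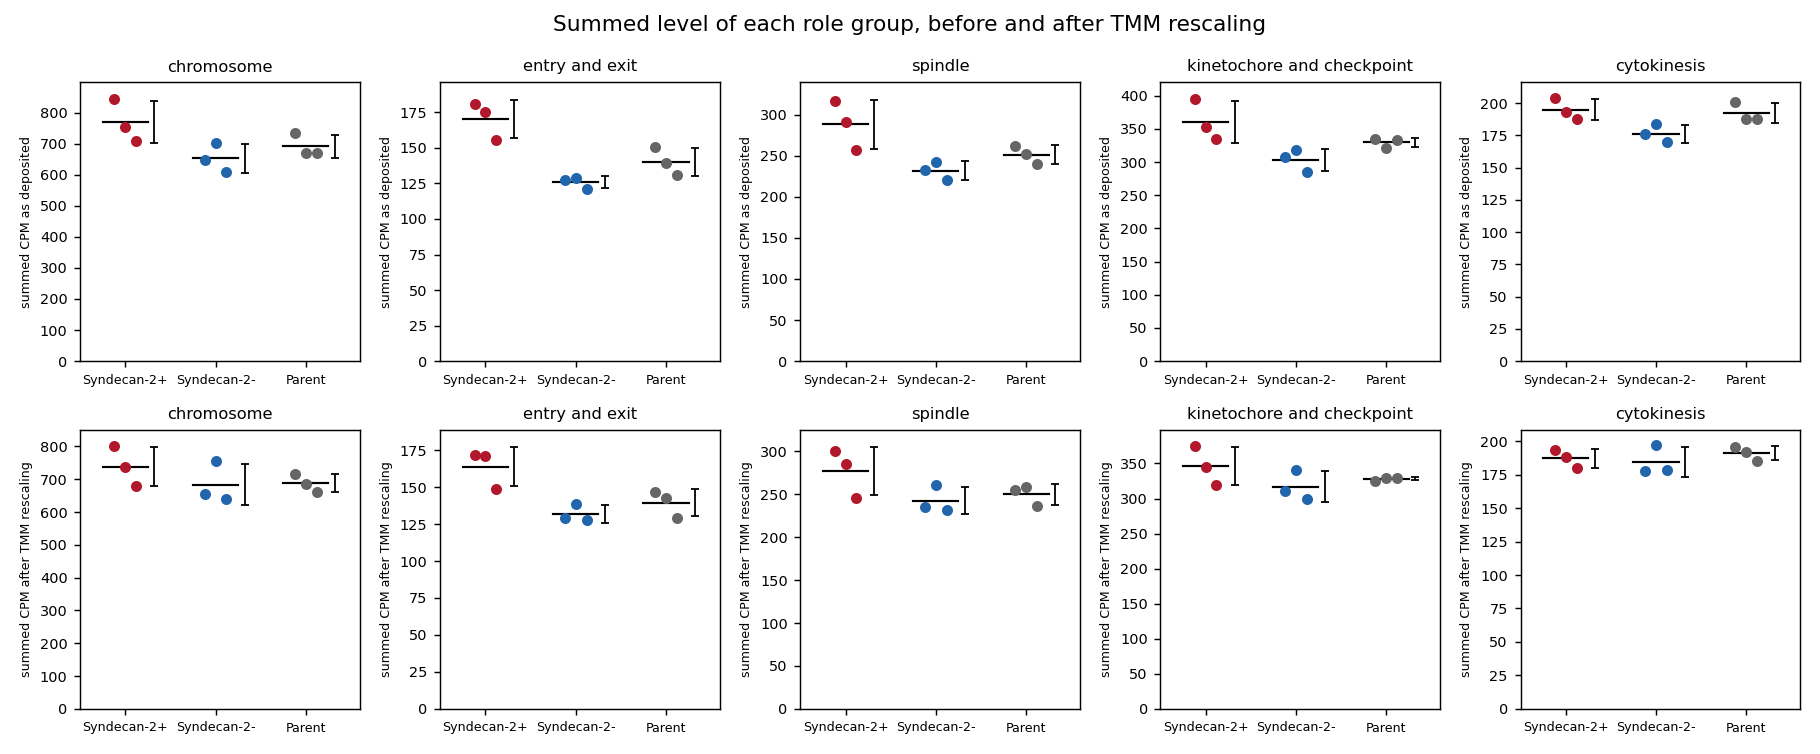
Summed CPM of the genes of each role in each library (points), with mean (bar) and SD (whisker), as deposited (top) and after TMM rescaling (bottom), for Syndecan-2+, Syndecan-2- and Parent libraries. Entry and exit genes stay apart between Syndecan-2+ and Syndecan-2- libraries on both scales, and cytokinesis genes, at a ratio of 1.11 before rescaling, come to 1.02 after it.

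Other genes of the same processes were taken from 7 lists. Of 130 such genes tested, 31 were higher in Syndecan-2+ cells (23.8%, near the background of 20.5%) and 3 were lower (2.31%, under the background of 9.51%), with a median log2 fold change of 0.14. After TMM rescaling 12 were higher (9.23%) and 4 lower (3.08%), both under the background of 14.2% in either direction. With the replicate number as a block 42 were higher (background 24.5%) and 3 lower (background 11.1%), with the further kinetochore and checkpoint genes called higher at 11 of 29, against 7 without the block. Among 16 entry kinases and phosphatases, 4 were higher (25%, background 20.5%) and 2 lower (12.5%, background 9.51%). After TMM rescaling 1 was higher (6.25%) and 2 lower (12.5%), with a background of 14.2% in either direction. Cdc25b, a Cdk1-activating phosphatase, averaged 17.8 ± 2.63 CPM in Syndecan-2+ and 10.6 ± 0.684 CPM in Syndecan-2- cells (log2 0.68, limma adjusted p = 0.000452), while Nek6, a mitotic kinase, averaged 4.34 ± 0.297 CPM in Syndecan-2+ and 8.10 ± 1.56 CPM in Syndecan-2- cells (log2 -0.76, limma adjusted p = 0.00123), and Nek2, a centrosome kinase, was among the genes called higher (log2 0.41). The other gene lower in that list was Cdc25a, a phosphatase of S phase entry (log2 -0.25, limma adjusted p = 0.0433), which is named because of its value.

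Among 18 regulators of mitotic transcription, 4 were higher (22.2%, near the background of 20.5%) and none lower (background 9.51%). After TMM rescaling 1 was higher (5.56%, background 14.2%), and 13 of the 18 estimates were below 0, where 50.8% of all genes were. Rbl2, E2f8 and E2f7, all repressors of cell cycle genes, had the smallest p (log2 0.30, 0.35 and 0.59). Foxm1, the activator of the late mitotic programme, which is named here after its values were seen, had 31.0 ± 1.95 CPM in Syndecan-2+ and 26.8 ± 2.21 CPM in Syndecan-2- cells and was called with the block and not without it (limma adjusted p = 0.0398 with the block and 0.136 without it). Of 15 genes of the anaphase-promoting complex and its activators, 3 were higher (Fzr1, Anapc1 and Anapc4), or 20% against a background of 20.5%. All 3 calls were lost after TMM rescaling. Of 18 genes of condensin, cohesin and securin, 5 were higher (27.8%, background 20.5%), and 2 after TMM rescaling (11.1%, background 14.2%). The 5 were led by Smc4 of condensin (129 ± 5.13 CPM in Syndecan-2+, against 99.8 ± 6.39 CPM in Syndecan-2-, limma adjusted p = 0.000537), Rad21 and Smc2.

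Of 29 further kinetochore and checkpoint genes, 7 were higher (24.1%, near the background of 20.5%), and 3 after TMM rescaling (10.3%, background 14.2%). Among the 7 were Cdca8 (borealin, of the complex that holds Birc5 and Aurkb, log2 0.44), Ska3 (0.65) and Cenpl (0.52). Of 23 further spindle genes, 5 were higher (21.7%, near the background of 20.5%), among them Ckap2l (0.66), Kif18b (0.59) and Ckap5 (0.32). After TMM rescaling 3 were higher (13.0%, background 14.2%). As deposited 1 was lower (4.35%, background 9.51%), Stmn1, named because of its value, which encodes the microtubule destabiliser stathmin (114 ± 0.562 CPM in Syndecan-2+, against 133 ± 2.36 CPM in Syndecan-2-, log2 -0.21, limma adjusted p = 0.0198). Of 11 further cytokinesis genes, 3 were higher (27.3%, background 20.5%), Myh10, Gas2l3 and Kif20b, and 2 after TMM rescaling (18.2%, background 14.2%). Myh10, the heavy chain of non-muscle myosin IIB and a motor of the contractile ring, was the largest change in these lists at 27.9 ± 0.651 CPM in Syndecan-2+, 3.65 ± 0.941 CPM in Syndecan-2- and 9.10 ± 0.507 CPM in Parent libraries (log2 2.66 against Syndecan-2-, SE 0.14, limma adjusted p = 2.65e-10). Myosin IIB also serves the cytoskeleton of cells that do not divide.

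Syndecan-2+ cells were also set against the undivided gate. Of the 37 genes, 6 were higher in Syndecan-2+ than in Parent libraries (Ccna2, Ccnb1, Ccnb2, Tpx2, Hmmr and Prc1, background 9.9%) and 2 were lower (Kif23 and Ect2, background 7.31%), with a median log2 fold change of 0.14 against 0.046 over all genes. Hmmr had a log2 fold change of 0.48 (SE 0.10, limma adjusted p = 0.00168), Kif23 of -0.40 (SE 0.08, limma adjusted p = 0.00162) and Ect2 of -0.58 (SE 0.11, limma adjusted p = 0.000826). These 3 calls held in all 20 settings. The other 5 did not, since leaving out Syndecan-2+ library 1 or 2 or Parent library 2 or 3 left 1 gene called higher, and TMM rescaling left 3, Ccnb1, Ccnb2 and Hmmr (background 8.41% higher and 8.9% lower). With the replicate number as a block, 10 genes were higher, now with Mki67, Aspm, Cenpf and Anln (background 13.2%), and 2 lower (background 9.14%). Parent includes Syndecan-2+ and Syndecan-2- cells, and both comparisons of Syndecan-2+ cells use the same libraries, so they are not separate evidence.

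Between Syndecan-2- and Parent libraries none of the 37 genes was called in either direction by limma, where the background was 0.121% higher and 2.54% lower. At an unadjusted p under 0.05, 7 were lower in Syndecan-2- libraries (Cdk1, Cdc25c, Cdc20, Mad2l1, Birc5, Kif4 and Prc1, background 11.2%) and 0 higher (background 2.36%). Of the 37 estimates 34 were below 0, where 65.7% of all genes were, with a median of -0.14 against -0.059 over all genes. After TMM rescaling 29 were below 0, where 48.8% of all genes were, with a median of -0.074 against 0.0048 over all genes. With the replicate number as a block, none was called higher (background 0.514%) and Prc1 was called lower (background 4.38%, 30.6 ± 4.10 CPM in Syndecan-2-, against 37.8 ± 3.56 CPM in Parent, limma adjusted p = 0.0141 with the block and 0.140 without it). Kif23 and Ect2 were not called, with log2 differences of 0.017 (95% interval -0.15 to 0.19, limma adjusted p = 0.956) and 0.10 (-0.12 to 0.33, limma adjusted p = 0.743).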

How the data were processed

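RNA from sorted KSL CD34- marrow cells was measured in 9 libraries, 3 each of Syndecan-2+, Syndecan-2- and Parent. The authors deposited CPM values per Ensembl transcript, 1 column per library. Per the submitters' processing notes, STAR, Bowtie2 and build GRCm38 were used, without versions or roles. What the counting program, its strand setting and the CPM denominator were is not given in the sources used here. Missing reads are listed as 0.0001. This offset was subtracted before values were summed per gene symbol. Summed over transcripts, a library reaches 53.2 to 54.5% of the nominal CPM total in Syndecan-2+, 51.5 to 51.6% in Syndecan-2- and 53.1 to 54.1% in Parent. All Syndecan-2- libraries thus lie below the others. Only 32.9 to 34.0% of low transcript values came out as whole reads (within 0.1 read), so the count test foreseen for counts was not run.

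Genes that reached 1 CPM in 3 or more of the 9 libraries (13997) were tested with limma 3.58.1 in R 4.3.3 (lmFit, contrasts, eBayes with trend) on log2 of CPM plus a pseudocount of 1, with all libraries in 1 fit and Benjamini-Hochberg adjustment at 0.05. Fold changes on this scale understate those of low genes. TMM factors used trims of 0.3 and 0.05. Ratios within a library are given as descriptions, since an exact permutation test of 3 libraries against 3 cannot give a p under 0.1. Python 3.11.15, with scipy 1.17.1, pandas 2.3.3 and matplotlib 3.10.9, made the tables and figures. The pipeline was tested on simulated libraries with independent noise, in which 200 of 13997 genes were changed, none of them at a low level. There it called 22% of genes changed 1.25-fold, 58% of those changed 1.5-fold and 88% of those changed 2-fold. Far more genes were called between the sorted populations, so these rates do not give the power of that comparison. A gene not called may still differ by a small fold.

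Over all genes tested, same-numbered libraries deviated together from their population means (correlations of 0.117 to 0.259 over 9 pairs, against -0.206 to 0.00483 over 18 others). For this reason the replicate number was used as a block. Deviations within a population sum to 0, which pushes the 18 values down where the 9 are above 0, so the 18 are not separate evidence. Over the 37 genes alone the ranges overlapped (-0.151 to 0.344, against -0.327 to 0.365), so these genes by themselves do not show the pairing. The block is given where it changes a call of the 37 genes, and as counts for the further lists. Within a population, any pair of libraries shared at most 2 identical gene values above 0. The 37 genes, their roles, the lists of other genes and the markers were chosen with earlier results of these data known. Named genes are all 37, up to 3 genes per further list with the smallest p, Sdc2 and markers beside a result. Foxm1, Cdc25a, Stmn1 and the genes that share exons with a named gene fall outside this rule and were named after their values were seen. Septin genes, whose symbols are stored as calendar dates, were not analysed here. Alternatives were other pseudocounts (0.1 and 5), filters (none, 10 CPM), TMM and quantile scaling, eBayes without trend, the 6 libraries compared alone, the block with and without TMM, each library left out, and a threshold of 0.1. Equal sums over listed transcripts and transcripts in place of genes were chosen after seeing the data.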

Additional observations from a re-analysis of the deposited data

How the results depend on the processing

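Between Syndecan-2+ and Syndecan-2- cells, the count of 21 genes higher became 10 with TMM rescaling, 3 when transcripts were tested instead of genes and 13 with quantile normalization, and ranged from 12 to 23 when each library was left out, with 12 without Syndecan-2+ replicate 1 and 12 without Syndecan-2- replicate 3. It was 15 to 25 under the other settings, 16 with equal sums over listed transcripts, 25 with the replicate block and 17 with the replicate block and TMM rescaling. The count of 2 genes lower was 2 under every setting except transcripts in place of genes, where it was 1. Against Parent, the 6 genes higher in Syndecan-2+ cells became 3 with TMM rescaling, 2 with eBayes without trend, 10 with the replicate block and 0 with transcripts, and 1 to 7 when each library was left out, while the 2 lower became 1 with transcripts only. Between Syndecan-2- and Parent, the replicate block called 1 gene lower and no other setting called any. Of single genes, 11 of 23 calls between the sorted populations and 3 of 8 against Parent held in all 20 settings. The replicate block by itself ended none of these calls. The log2 ratio of the summed 37 genes was 0.26, 0.14 after TMM rescaling and 0.28 without Mki67 and Top2a. No called gene reversed. Estimates of genes not called changed sign in 15, 33 and 33 cases in the 3 comparisons. The cause of these shifts was not tested. Depth leaves no difference detectable below 0.146 to 0.194 CPM, and how far it limits each gene was not compared.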
